A study of Mus musculus with 8 samples.

Results

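R-loop resolving nucleases and helicases were followed in RNA sequencing of mouse hematopoietic stem cells, comparing DekTg with DekCon animals. The set was given by name and holds 9 of the 52224 genes in the deposited table: the RNase H genes Rnaseh1, Rnaseh2a, Rnaseh2b and Rnaseh2c, the helicase genes Aqr, Dhx9 and Ddx19a, the exonuclease gene Xrn2 and the topoisomerase gene Top1. All 9 were present and all 9 had enough reads to be tested. The cells were bone marrow LSK cells (lacking lineage markers, carrying Sca-1 and Kit) sorted for CD150 and against CD48, with 4 libraries per genotype. The labels name the genotypes DekCon and DekTg and spell out neither, nor do they give a promoter, an age or whether every library is a separate mouse. The p-values thus cover the spread among these libraries only, and that spread may be technical. Dek encodes a chromatin-bound protein that the series' title links to replication stress in Fanconi anemia, a failure of DNA crosslink repair.

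An R-loop forms when a nascent RNA pairs again with its DNA template and leaves the other DNA strand unpaired. Unresolved R-loops stall replication forks, and cells remove them in several ways. RNase H enzymes cut the RNA strand of the hybrid, helicases unwind it, Xrn2 degrades the RNA behind a terminating polymerase, and Top1 relieves the negative supercoiling that lets hybrids form. In blood, loss of R-loop control is best known from myeloid neoplasms with splicing factor mutations and from cells deficient in the Fanconi anemia pathway.

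Values are normalized read counts, that is, reads per gene divided by 1 size factor per library. They are not scaled for gene length. Recovered reads per library ran from 2525884 to 4101132. Dek was listed at 395 to 632 in DekCon and at 1862 to 2710 in DekTg, and no DekTg library overlapped a DekCon library. The 4 DekTg values of Dek are not whole numbers of reads, however, and their size cannot be read as measured. None of the 9 R-loop genes holds such a value. Of the stem cell and sort markers all 9 were detected in every library, with a summed normalized read count of 3374 to 4627 in DekCon and 3706 to 4345 in DekTg. That sum includes Cd48 and Flt3, which were expected low, and so does not measure purity. Cd48 ran from 128 to 259 in DekCon and from 174 to 230 in DekTg, and Flt3 from 161 to 847 and from 688 to 845. Slamf1, which encodes CD150, ran from 228 to 300 and from 190 to 213. Within each genotype, libraries 1 and 4 lay closer together than any other pair. Their read counts differed by a chi-square per degree of freedom of 1.58 in DekCon and 1.67 in DekTg, against 3.62 to 7.83 for the other pairs, where counting noise alone gives about 1. They were kept as separate samples, and with each pair averaged 0 of the 9 R-loop genes passed the threshold. Summed B lymphoid markers ran from 318 to 554 in DekCon and from 1541 to 2662 in DekTg, and summed erythroid markers from 123 to 322 and from 469 to 592, with all 7 markers of each list detected in every library. These sums separated the genotypes and their part in the results below was not tested. DekCon replicate 2 stood apart. Its summed megakaryocyte markers reached 9231 against at most 4674 in the other 7 libraries, and its stem cell marker Procr was 13.4 against at least 40.5. In bulk libraries, fewer cells of a type and less RNA per cell cannot be told apart.

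No R-loop resolving gene differed between the genotypes beyond the spread of the libraries. Of the 9 genes, 0 passed limma's test at an adjusted p under 0.05, against 0.0347% of the 37414 genes tested (0.00802% lower in DekTg). At an unadjusted p under 0.05 the count was also 0 of 9, against 6.93%. EdgeR on the recovered reads also called 0 of 9, and DESeq2 called 0 of the 3 genes for which its filtering left an adjusted p. The value ranges of DekCon and DekTg overlapped for all 9 genes, whereas they were separate for 3.97% of the genes tested. The largest difference in size was that of Rnaseh2c, at a log2 fold change of -0.36 (DekTg minus DekCon, on the log2(value + 1) scale), and the smallest that of Rnaseh1, at 0.03. A p that misses the threshold does not show that the levels were equal, and the 95% confidence intervals give the range of differences left by these libraries. All 9 intervals contained 0 and none reached a 2-fold difference in either direction.

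The genes are spread over the genome, at these GRCm38 positions in the GENCODE annotation. Rnaseh1 lies at chr12:28649602-28659589 (plus strand), Rnaseh2a at chr8:84956610-84969767 (minus), Rnaseh2b at chr14:62292589-62372992 (plus) and Rnaseh2c at chr19:5601873-5607019 (plus). Aqr lies at chr2:114101170-114187024 (minus), Dhx9 at chr1:153455758-153487660 (minus) and Ddx19a at chr8:110974996-110997800 (minus). Xrn2 lies at chr2:147012996-147078000 (plus) and Top1 at chr2:160645888-160722764 (plus). The table holds a single value per gene and library, so no value below is that of an exon or isoform.

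**Figure D1:**
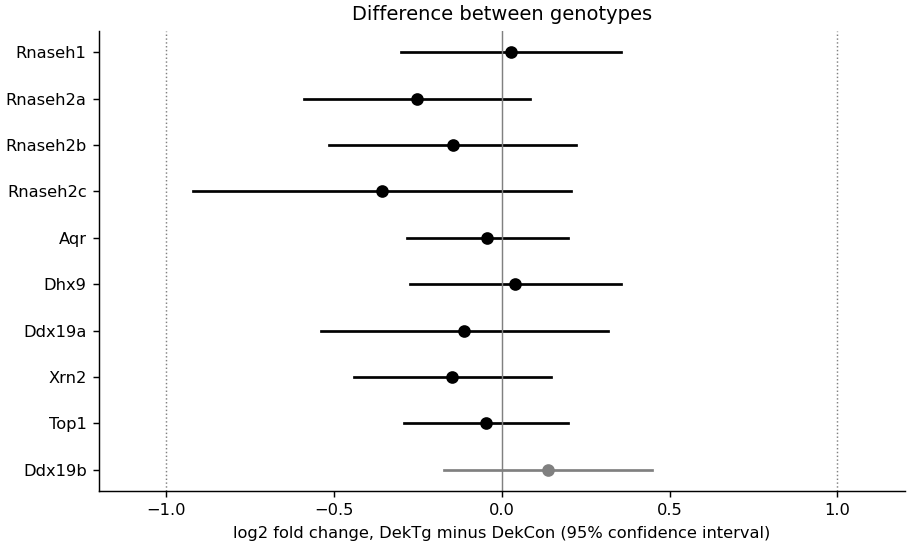
Log2 fold change (horizontal axis, DekTg minus DekCon) of the 9 R-loop resolving genes in black and of Ddx19b, the near copy of Ddx19a, in grey. Points are limma estimates from 4 libraries per genotype, lines are 95% confidence intervals, and dotted lines mark 2-fold; every interval crosses 0 and the widest is that of Rnaseh2c, from -0.92 to 0.21.

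The RNase H genes come first. Rnaseh1 encodes the single-subunit enzyme that digests RNA in long hybrids, in the nucleus and in mitochondria. Its normalized read count was 86.2, 122, 89.5 and 88.8 in DekCon replicates 1 to 4 and 90.7, 98.5, 94.1 and 107 in DekTg replicates 1 to 4. DekCon replicate 2 was the highest of all 8 libraries, while the other 3 DekCon libraries lay below all 4 DekTg libraries. The 4 libraries averaged 96.5 ± 16.7 (SD) in DekCon, and 97.6 ± 7.10 (SD) was the DekTg average (log2 fold change 0.03, 95% confidence interval -0.30 to 0.36, limma adjusted p = 0.982). It was 0.14 with DekCon replicate 2 left out.

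RNase H2 is a trimer that removes hybrids and also excises single ribonucleotides left in DNA, and its 3 genes are among those mutated in Aicardi-Goutières syndrome, an inherited interferon disease. The catalytic subunit gene Rnaseh2a stood at 193, 249, 192 and 167 in DekCon and at 180.5, 132, 158 and 202 in DekTg. The lowest 2 values were both from DekTg and the highest was DekCon replicate 2, with the rest intermingled. Means were 200.1 ± 34.7 and 168 ± 29.8 (SD, n = 4 each), a log2 fold change of -0.25 (95% confidence interval -0.59 to 0.08, limma adjusted p = 0.778). It had the smallest unadjusted p of the set, 0.133, and it was -0.14 without DekCon replicate 2 and also -0.14 without DekTg replicate 2.

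Rnaseh2b, whose product is the subunit that binds the replication clamp PCNA, was at 114, 201, 119 and 143 in DekCon and at 129, 143, 111 and 127 in DekTg. Apart from DekCon replicate 2, the libraries of both genotypes covered the same range. Its log2 fold change was -0.15 (95% confidence interval -0.51 to 0.22, limma adjusted p = 0.877) and turned to 0.02 without DekCon replicate 2, while it was -0.25 without DekCon replicate 1 and -0.23 without DekCon replicate 3. Rnaseh2c, the smallest of the subunit genes in exonic length, was at 41.8, 73.7, 30.2 and 42.4 in DekCon and at 47.8, 24.0, 34.9 and 35.7 in DekTg. DekCon replicate 2 was again the highest and DekTg replicate 2 the lowest. The log2 fold change of -0.36 had the widest interval of the set (-0.92 to 0.21, limma adjusted p = 0.811), and moved to -0.12 without DekCon replicate 2, to -0.19 without DekTg replicate 2 and to -0.54 without DekCon replicate 3.

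Depth limits these values unequally. Rnaseh2c rested on 20 to 77 recovered reads per library, Ddx19a on 36 to 64, Rnaseh1 on 68 to 127, Rnaseh2b on 90 to 210 and Rnaseh2a on 110 to 260. For Rnaseh2c, counting error alone is a coefficient of variation (CV, the SD as a percentage of the mean) of 14.2% in DekCon and 16.4% in DekTg, against observed values of 39.7% and 27.3%. These reads come from amplified cDNA without molecular identifiers, so the counting error covers only part of the technical noise. Part of Rnaseh2c is also shared with another gene. Of its 1715 exonic bases, 426 overlap exons of the acetyltransferase gene Kat5 on the opposite strand, and Kat5 averaged 96.6 normalized reads against 41.3 for Rnaseh2c. Rnaseh2a shares 177 of 3509 exonic bases with the peroxiredoxin gene Prdx2 on the opposite strand, which averaged 645. It also shares 339 exonic bases on its own strand with Gm49661, which is listed at 0 in the table, and no strand setting separates that overlap. No source used here states the strand setting of the counting, so reads in these shared stretches cannot be assigned securely.

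Among the helicases, Aqr encodes Aquarius, a helicase of the spliceosome that binds introns, and its depletion is known to raise R-loops. It had the smallest SD relative to its mean over all 8 libraries, at 380.3, 411, 351 and 367 in DekCon and at 372, 360.4, 373 and 357 in DekTg. The 4 DekTg values lay inside the range of the 4 DekCon values. The log2 fold change was -0.04 (95% confidence interval -0.28 to 0.20, limma adjusted p = 0.954), which leaves a DekTg level between 0.82 and 1.15 times that of DekCon, and with quantile normalization it turned to 0.07. Leaving out 1 library moved it between -0.08 (without DekCon replicate 3) and -0.001 (without DekCon replicate 2). Its CV was 6.86% in DekCon and 2.17% in DekTg, where counting error alone gives 5.04% and 5.21%.

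Dhx9 encodes a helicase that unwinds RNA:DNA hybrids and structured RNA. It was at 114, 92.8, 104 and 103 in DekCon and at 102, 126, 93.2 and 105 in DekTg. DekTg replicate 2 was the highest and DekCon replicate 2 the lowest, the reverse of the pattern in Rnaseh2c. Its log2 fold change was 0.04 (95% confidence interval -0.27 to 0.35, limma adjusted p = 0.970), and it turned to -0.01 without DekCon replicate 2 and to -0.04 without DekTg replicate 2.

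Ddx19a encodes a DEAD-box helicase of the nuclear pore that takes part in mRNA export, and the DDX19 protein is also known to clear R-loops after replication stress. It was at 49.4, 60.3, 35.8 and 49.4 in DekCon and at 37.1, 43.2, 45.6 and 52.5 in DekTg, with both genotypes spanning much the same range. The log2 fold change was -0.11 (95% confidence interval -0.54 to 0.31, limma adjusted p = 0.929), and leaving out 1 library moved it between -0.25 (without DekCon replicate 3) and -0.004 (without DekCon replicate 2). It was -0.19 without DekTg replicate 4 and -0.03 without DekTg replicate 1. Mice carry a second gene, Ddx19b, beside it on chromosome 8, and the reads of the pair cannot be separated along their whole length. In the GENCODE transcripts, 831 of the 2954 distinct stretches of 50 bases in Ddx19a (28.1%) also occur in Ddx19b, whereas no other gene of the set shares such a stretch with another of the set. The longest open reading frames of the pair, 1437 bases in Ddx19a and 1485 in Ddx19b, are 93.2% identical over 1437 aligned bases and include an identical run of 275 bases. The first 45 bases of that run, from position 613 of the Ddx19a reading frame, and the 45-base window in which the copies differ most, from position 442 in Ddx19a and 490 in Ddx19b, show where a read can and cannot be assigned. Capitals mark the 15 positions at which the divergent stretches differ.
Ddx19a and Ddx19b, identical stretch: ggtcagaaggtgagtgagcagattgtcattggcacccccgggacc
Ddx19a, divergent stretch: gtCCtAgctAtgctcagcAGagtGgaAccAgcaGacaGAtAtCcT
Ddx19b, divergent stretch: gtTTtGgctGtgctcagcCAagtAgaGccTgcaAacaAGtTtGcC
Ddx19b was the more abundant in normalized reads, at 124, 114.8, 129 and 103 in DekCon and at 122, 155, 130.04 and 113 in DekTg. Its log2 fold change was 0.14 (95% confidence interval -0.17 to 0.45, limma adjusted p = 0.862), of opposite sign to that of Ddx19a. With the reads of both copies summed, which does not depend on how they were divided, the log2 fold change was 0.06 (limma adjusted p = 0.937).

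Xrn2 and Top1 act on transcription itself. Xrn2, the nuclear exonuclease that chases RNA polymerase II past the end of a gene, was at 373, 415, 344 and 292 in DekCon and at 322, 360.4, 334 and 266 in DekTg. Libraries numbered 4 were lowest in both genotypes, and the ranges overlapped from 292 to 360.4. The log2 fold change was -0.15 (95% confidence interval -0.44 to 0.15, limma adjusted p = 0.843), moving to -0.07 without DekCon replicate 2, to -0.06 without DekTg replicate 4 and to -0.24 without DekCon replicate 4. Top1, which encodes the nuclear topoisomerase I that relaxes supercoils on both sides of a polymerase, was at 539, 602, 534 and 575 in DekCon and at 517, 619, 534 and 512 in DekTg. The replicates 2 were the highest library in each genotype. With 425 to 745 recovered reads per library it was the most deeply covered gene of the set, and its log2 fold change was -0.05 (95% confidence interval -0.29 to 0.20, limma adjusted p = 0.951), turning to 0.10 with quantile normalization. Leaving out 1 library moved it between -0.11 (without DekTg replicate 2) and -0.014 (without DekCon replicate 2).

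**Figure D2:**
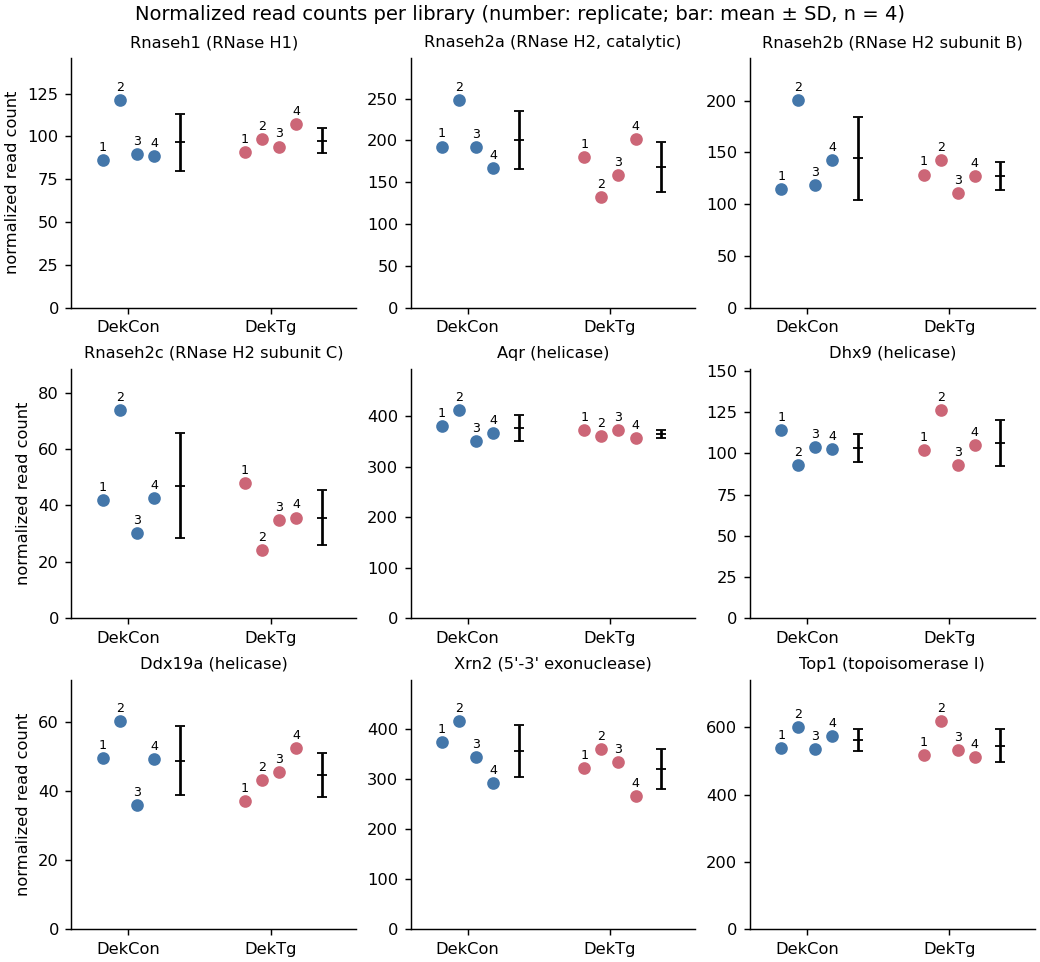
Normalized read count (vertical axis, from 0) of each R-loop resolving gene in the 4 DekCon (blue) and 4 DekTg (red) libraries, numbered by replicate, with black bars for mean ± SD. The genotypes overlap in all 9 panels, and DekCon replicate 2 is the highest library in 7 of them.

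Levels of different genes can be compared only per length. Per kilobase of exon, Xrn2 had the highest level, with 85.0 ± 11.8 normalized reads per kilobase (SD over all 8 libraries). It exceeded the next gene, Top1, at 53.1 ± 3.81, in 8 of 8 libraries and without overlap. Top1 and Rnaseh2a, at 52.5 ± 9.82, were not separated, Top1 being higher in 3 of 8 libraries. Rnaseh1 followed with 37.5 ± 4.61, below Rnaseh2a in 7 of 8 libraries, and above Aqr at 31.5 ± 1.59 in 8 of 8 although the ranges overlapped. The other RNase H2 subunit genes stood lower than the catalytic one, Rnaseh2c at 24.1 ± 8.78 and Rnaseh2b at 21.7 ± 4.64, and this pair was not separated (Rnaseh2c higher in 6 of 8). Rnaseh2c was below Aqr in 7 of 8 libraries, and Rnaseh2b was above Ddx19b in only 4 of 8. Ddx19b at 18.4 ± 2.27 and Ddx19a at 15.8 ± 2.73 were not separated either, with Ddx19b higher in 5 of 8. Dhx9 came last at 10.9 ± 1.14, below Ddx19a in 8 of 8 libraries, again with overlapping ranges. Exonic lengths were the union of all annotated GENCODE exons, which overstates the length of genes with long rare exons and lowers their level.

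**Figure D3:**
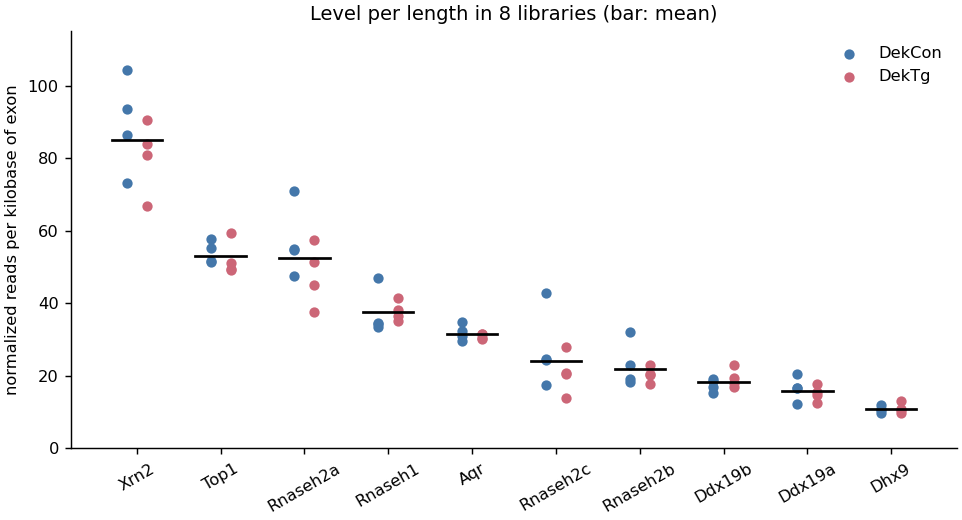
Normalized reads per kilobase of exon (vertical axis) in 4 DekCon (blue) and 4 DekTg (red) libraries, genes ordered by mean (black bar). Xrn2 stands above all others, and Dhx9 is lowest at 10.9.

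The 3 RNase H2 subunits form a trimer of equal parts, and the levels per kilobase of their transcripts were not equal. These levels rest on union exonic lengths of 3509 bases for Rnaseh2a, 6243 for Rnaseh2b and 1715 for Rnaseh2c. Without the length scaling, Rnaseh2a and Rnaseh2b averaged 184 and 136 normalized reads. The exon overlaps of Rnaseh2a and Rnaseh2c given above also limit the ratios, so unequal transcript numbers are not established. Per kilobase, Rnaseh2a exceeded Rnaseh2b in every library, by 1.645 to 3.005 times, with a mean ratio of 2.54 ± 0.47 (SD) over the 4 DekCon libraries and 2.38 ± 0.51 over the 4 of DekTg. It exceeded Rnaseh2c in every library as well, by 1.65 to 3.12 times, with mean ratios of 2.23 ± 0.64 and 2.38 ± 0.43 (SD, n = 4 each). The ratio of Rnaseh2b to Rnaseh2c ran from 0.74 to 1.64 and was highest in DekTg replicate 2. The ratio of Rnaseh2a to Rnaseh1 averaged 1.53 ± 0.11 (SD) for DekCon against 1.27 ± 0.21 for DekTg, with DekTg replicate 2 lowest at 0.99. All these ratios are given as a description, and the genotypes overlapped in each.

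One library carried much of the variation. DekCon replicate 2 was the highest of the 8 libraries for 7 of the 9 genes, where that library was highest for 16.8% of all genes tested and for 38.5% of the 7602 genes with a mean value of at least 100. The exceptions were Top1, where it was second to DekTg replicate 2, and Dhx9, where it was lowest. On the log2 scale its excess over the gene's median was 0.93 for Rnaseh2c, 0.65 for Rnaseh2b, 0.42 for Rnaseh2a and 0.40 for Rnaseh1, but 0.16 for Aqr and 0.17 for Top1. DekTg replicate 2 showed the lowest Rnaseh2a (-0.50) and Rnaseh2c (-0.69) with the highest Dhx9 (0.29) and Top1 (0.21). The same DekCon library held the highest summed megakaryocyte markers (9231, against 1995 to 4674 in the other 7), with all 5 of them detected in every library. Summed granulocyte and monocyte markers were high in that library too (10952), but also in DekCon replicate 3 (10585.5) and DekTg replicate 3 (11065). In the other libraries they ran from 2334 to 4729. The part of these markers in the R-loop gene values was not tested.

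**Figure D4:**
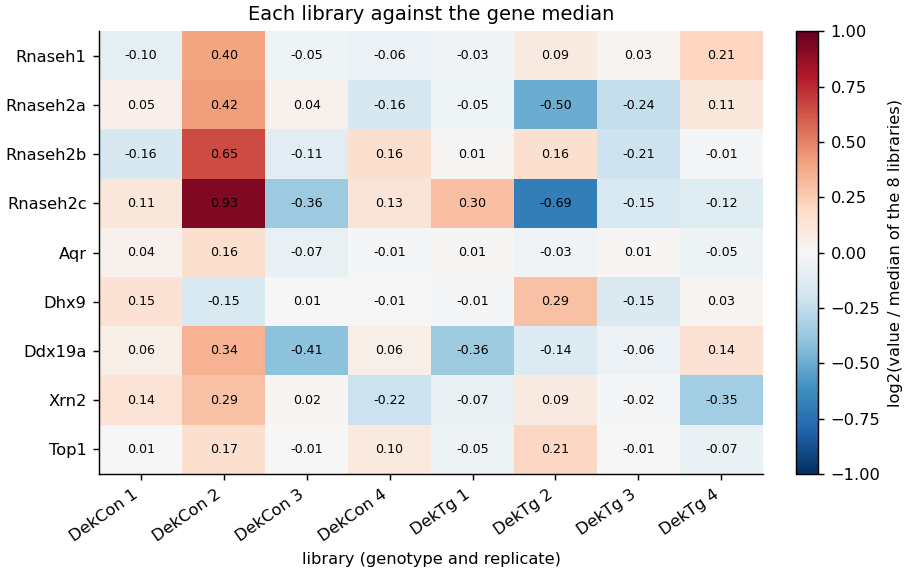
Log2 of each library's value over the median of the 8 libraries (colour and printed number), for the 9 R-loop resolving genes in rows and the libraries in columns. The DekCon 2 column is positive for 8 genes, most for Rnaseh2c at 0.93, and Dhx9 is its exception at -0.15.

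Across the 8 libraries the genes accordingly moved together in part. Of the 36 pairs, 29 had a Pearson correlation above 0 on the log2 scale, with a median r of 0.42. The closest were Rnaseh2c with Aqr (r = 0.86), Rnaseh2a with Rnaseh2c (0.78) and Rnaseh1 with Rnaseh2b (0.77). The most opposed were Rnaseh2c with Dhx9 (-0.64) and Rnaseh2a with Dhx9 (-0.56). Without DekCon replicate 2, 17 of 36 pairs were above 0 and the median was -0.04, so most of the shared movement rested on that library. These correlations are descriptions over 8 libraries, 2 genotypes and shared size factors. No such figures are given for pairs of other genes, so the share above 0 is not shown to be particular to this set. The pairs above 0.5 both with and without that library were Rnaseh2c with Aqr (0.61 without it), Rnaseh2a with Rnaseh2c (0.55) and Rnaseh2b with Top1 (0.70 with it, 0.64 without). The most opposed pair without that library was Rnaseh2a with Top1 (-0.84, against -0.20 with it), followed by Rnaseh2c with Top1 (-0.58, against 0.05). Rnaseh2c with Dhx9 was then -0.50 and Rnaseh2a with Dhx9 -0.37.

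Start-site sequences are shown for the genes of the highest and next-highest and the lowest and next-lowest correlations, Rnaseh2a, Rnaseh2c, Aqr and Dhx9. RefSeq windows from 250 bases before to 50 after the start (GRCm38.p6) were at hand for 7 of the 9 genes. Rnaseh1 and Rnaseh2b had no entry. The 100 bases before each RefSeq start follow, on the gene's strand. They lie at chr8:84966077-84966176 (minus strand), chr19:5601773-5601872 (plus), chr2:114175340-114175439 (minus) and chr1:153487661-153487760 (minus). For Rnaseh2a and Aqr the RefSeq start used lies inside the GENCODE gene, which extends to 84969767 and 114187024. Their bases are thus upstream of that internal start only. All motif distances below are from the RefSeq start. Capitals mark the ETS core CCGGAAGT and the CCAAT box in either orientation.
Rnaseh2a: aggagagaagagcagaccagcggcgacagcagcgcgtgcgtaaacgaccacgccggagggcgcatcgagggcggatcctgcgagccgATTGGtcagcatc
Rnaseh2c: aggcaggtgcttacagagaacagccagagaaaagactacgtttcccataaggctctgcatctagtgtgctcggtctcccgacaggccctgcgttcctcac
Aqr: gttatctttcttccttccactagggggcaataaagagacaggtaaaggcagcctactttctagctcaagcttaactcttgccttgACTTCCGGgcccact
Dhx9: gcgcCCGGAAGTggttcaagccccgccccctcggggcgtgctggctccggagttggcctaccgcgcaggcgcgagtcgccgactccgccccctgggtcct
The ETS core CCGGAAGT, searched on both strands, lay in 3 of the 7 windows. It begins 15 bases before the start in Aqr, 96 before in Dhx9 and 3 after in Xrn2, and 3.89% of all 32851 windows hold it. The CCAAT box was in the windows of Rnaseh2a, 13 bases before the start, and of Aqr, 119 before, and in 37.4% of all windows. The E2F core TTTGGCGC was in the window of Dhx9 (0.514% of all windows), immediately before its ETS core and without overlap, and TTTCGCGC was in none of the 7 (0.323%). TATAAA was in none of the 7 (13.6%), nor was the consensus of NRF1, searched by its palindromic core (0.971%). The motifs were chosen after the sequences had been seen, and a match is a description of letters and not a binding site.

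Among other genes, the closest patterns to each R-loop gene were sought over the 8 libraries among 7014 named genes with a mean value of at least 100. For Rnaseh2a they were Fem1a (r = 0.98) and Pprc1 (0.98), for Rnaseh2c Ptma (0.98) and Txlna (0.98), and for Rnaseh2b Gpd1l (0.96) and Trim37 (0.95). For Rnaseh1 they were Hif1a (0.98) and Cfap418 (0.97), for Aqr Nop14 (0.95) and Suv39h1 (0.95), and for Dhx9 Aplp2 (0.96) and Mettl3 (0.95). For Xrn2 they were Aasdhppt (0.97) and Sanbr (0.95), for Top1 Selenos (0.98) and Pomp (0.98), and for Ddx19a Srpr (0.96) and Ints14 (0.95). With so many candidates and only 8 libraries, high values arise easily, as 141 of the 7014 genes exceeded r = 0.9 with Rnaseh2a, 104 with Top1 and 102 with Rnaseh2c, but only 8 with Dhx9.

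The set was then read against other genes of R-loop biology, 78 of which were in the table and tested. Of these 78, 0 passed limma's test, 10 had an unadjusted p under 0.05 (12.8% of the list, against 6.93% of all genes tested and 10.7% of genes with a mean value of at least 100), and 59 lay below 0. The ranges of DekCon and DekTg were separate for 4 of the 78, against 3.97% of all genes tested. Among the 7602 genes with a mean value of at least 100 they were separate for 423. For the 9 resolving genes, 7 lay below 0 and the median log2 fold change was -0.11. Over all genes tested 49.4% lay below 0 with a median of 0.01, but over the 7602 genes with a mean of at least 100 these figures were 71% and -0.10. The share and median of the resolving genes were close to those of well-expressed genes in general, although Rnaseh1, Rnaseh2c and Ddx19a average under 100. With quantile normalization, which removes that shift (median 0.002 for those genes), 5 of 9 lay below 0 and their median was -0.04.

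Other helicases that act on R-loops had a median log2 fold change of -0.19, with 14 of 17 below 0 and 0 passing. Pif1, a helicase of forks and telomeres, was at 100.1, 161, 103 and 93.4 in DekCon and at 88.2, 60.1, 94.1 and 75.6 in DekTg (unadjusted p = 0.0186, limma adjusted p = 0.711). Blm, the Bloom syndrome helicase, was at 170, 281, 253 and 166 and at 134, 178, 166 and 144 (unadjusted p = 0.0199, limma adjusted p = 0.711). In both, DekCon replicate 2 was the highest library.

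The THO complex and export factors coat nascent RNA and so keep it from pairing with DNA. Their median was -0.16, with 9 of 10 below 0 and 0 passing. The THO subunit gene Thoc3 was at 231, 287, 204 and 188 in DekCon and at 208, 129, 169 and 192 in DekTg (unadjusted p = 0.0352, limma adjusted p = 0.711). Srsf1, a splicing factor whose loss is known to cause R-loops, was at 403, 489, 442 and 389 and at 321, 460.0, 341 and 341 (unadjusted p = 0.0919, limma adjusted p = 0.749). Thoc3 had its extremes in the same libraries as Rnaseh2a, DekCon replicate 2 and DekTg replicate 2.

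Topoisomerases and their partners beside Top1 had a median of -0.13, with 7 of 8 below 0 and 0 passing. The exception was Tdrd3, a partner of topoisomerase 3B that reads methylarginine at transcribed genes. It was at 92.5, 134, 124 and 123 in DekCon and at 141, 175, 139 and 138 in DekTg, so that all 4 DekTg libraries exceeded all 4 DekCon libraries (unadjusted p = 0.0476, limma adjusted p = 0.716). Tdp2, which removes topoisomerase 2 from DNA ends, was at 203, 251, 173 and 184 and at 158, 167, 165 and 179.5 (limma adjusted p = 0.743).

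In the intron-binding complex of Aqr, 3 of 4 genes lay below 0 (median -0.14) and 0 passed. Isy1, a splicing factor of the complex, was at 190.2, 235, 205 and 191 in DekCon and at 187, 153, 182 and 185 in DekTg, without overlap (limma adjusted p = 0.774). Zfp830 was at 44.4, 75.6, 48.1 and 73.3 and at 75.8, 55.3, 74.7 and 86.1 (limma adjusted p = 0.800). The transcription termination list had a median of -0.01, with 5 of 9 below 0 and 0 passing. It also holds Xrn1, Cdkn2aip and Nkrf, which are not termination factors, and its median is the value of Xrn1. Cpsf1, a subunit of the complex that recognises the polyadenylation signal, was at 226, 292, 206 and 203 in DekCon and at 195, 138, 197 and 210.0 in DekTg (limma adjusted p = 0.721). Pcf11, a termination factor that binds RNA polymerase II, was at 331, 288, 304 and 317 and at 271, 324, 246 and 269.8 (limma adjusted p = 0.813).

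Ribonucleotide excision repair completes what RNase H2 begins. All 7 of its genes lay below 0, with a median of -0.23, and 0 passed. Pold1, the catalytic subunit of DNA polymerase delta, was at 170, 431, 203 and 195 in DekCon and at 218, 73.3, 149 and 197 in DekTg (unadjusted p = 0.0467, limma adjusted p = 0.713). Its highest and lowest libraries were those of Rnaseh2c, DekCon replicate 2 and DekTg replicate 2. Lig1, the ligase that seals the nick, was at 200.3, 381, 283 and 252 and at 181, 223, 269.8 and 170.1 (unadjusted p = 0.0536, limma adjusted p = 0.717).

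The list of export partners and relatives of Ddx19a had 3 of 5 genes below 0 (median -0.04) and 0 passing. The genes above 0 were the related helicase genes Ddx19b (0.14) and Ddx25 (0.006), and the export partners themselves all lay below 0. Nup62, a channel nucleoporin, was at 510, 761, 435 and 537 in DekCon and at 417, 309, 370 and 445 in DekTg, with 1 DekCon library inside the DekTg range (unadjusted p = 0.00535, limma adjusted p = 0.707). The values of Ddx19b are given above with Ddx19a. Genes of Aicardi-Goutières syndrome and nucleic acid sensing, apart from RNase H2, had 2 of 6 below 0 (median 0.05) and 0 passing. Sting1, the adaptor of DNA sensing, was at 308, 51.7, 131 and 297 in DekCon and at 284, 311, 278 and 318 in DekTg (unadjusted p = 0.0294, limma adjusted p = 0.711), with DekCon replicates 2 and 3 far below the others. Cgas, the sensor upstream of it, was at 106, 176, 106 and 128 and at 84.1, 99.7, 107 and 92.4 (unadjusted p = 0.0333, limma adjusted p = 0.711). Recombination and repair factors found at R-loops had 9 of 12 below 0 (median -0.09) and 0 passing. Bub3, a spindle checkpoint protein, was at 614, 705, 604 and 507 in DekCon and at 469, 572, 495 and 435 in DekTg (unadjusted p = 0.0362, limma adjusted p = 0.711). Ercc5, the XPG nuclease that can cut R-loops, was at 113, 110.0, 118 and 106 and at 129, 118, 131 and 135 (limma adjusted p = 0.787).

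**Figure D5:**
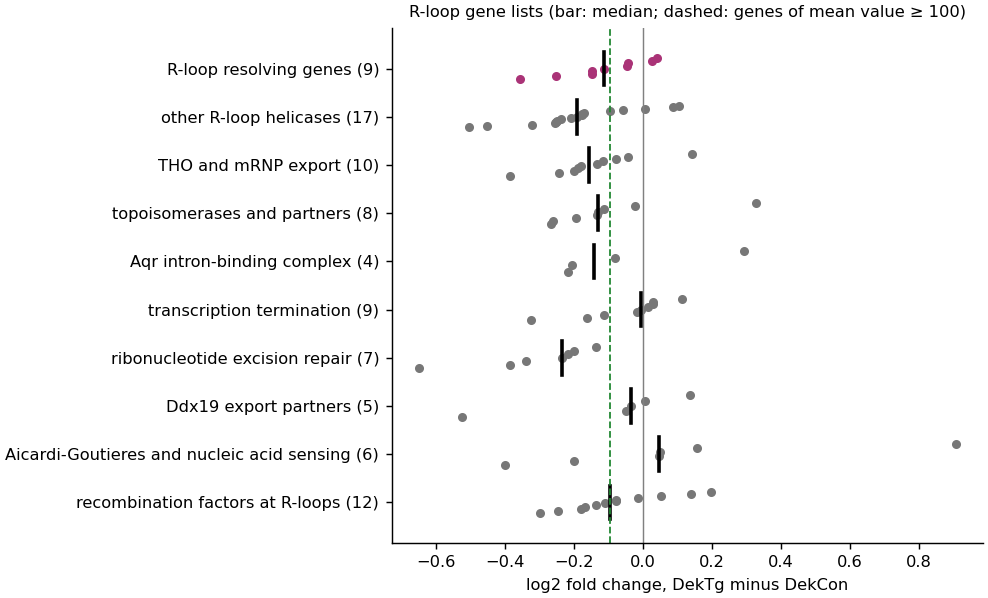
Log2 fold change (horizontal axis, DekTg minus DekCon) of each tested gene, by list, with the number of genes in brackets; black bars are list medians and the dashed line is the median of genes with a mean value of at least 100 (-0.10). The 9 resolving genes (top) centre on -0.11, close to that line, and span -0.36 to 0.04.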

How the data were processed

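The deposited table gives 1 value per gene and library for 8 libraries (4 DekCon, 4 DekTg). Its control columns are spelled DenCon and were read as DekCon. Per the labels, RNA was amplified by the Geo-seq method before tagmentation. The submitters' processing notes name Bowtie 0.12.9, Cufflinks 2.1.1, HTSeq, DESeq2 and mm10, without roles. The deposited values are a signal labelled FPKM, but 99.994% of 417792 values are whole multiples of 1 step per library (tolerance 0.001 reads, or a relative 1e-06 for high values), so the authors' values were read as gene counts divided by a size factor. The 25 exceptions lie in 6 genes, none in the set.

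Genes with a value of at least 1 in at least 4 libraries (37414) were tested with limma 3.58.1 (R 4.3.3) on log2(value + 1), with a mean-variance trend, two-sided, Benjamini-Hochberg adjusted over all genes tested, threshold 0.05. EdgeR 4.0.16 and DESeq2 1.42.0 ran on recovered reads. Scripts were checked on simulated reads. Of every other list, the 2 genes of smallest p are named, and for each R-loop gene the 2 genes of highest r. Kat5 and Prdx2 lie outside that rule and were chosen after seeing the data. Xrn1, Cdkn2aip, Nkrf and Ddx25 are named only to describe the make-up of their lists. The members and lists were chosen with earlier results of these data known. Positions and lengths are from GENCODE M21 (GRCm38). Same-numbered libraries of the 2 genotypes did not deviate together (r of deviations 0.003, -0.005, 0.006 and 0.083), so the numbers were not taken as pairs.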

Additional observations from a re-analysis of the deposited data

Results flagged for a closer look

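Rnaseh1 in DekCon replicate 2, at 122 normalized reads, lay far from the other 3 DekCon libraries, the nearest of which was at 89.5. The gap made up 0.906 of the group's range. Of 18 groups of 4 libraries examined (9 genes in 2 genotypes) this was the 1 past the limit, and chance alone passes it in about 1 group in 20.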

How the results depend on the processing

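Over 24 alternative settings, 0 of the 9 R-loop genes passed the threshold, and the number of members below 0 ranged from 5 to 8. The number of all genes called was 13. It fell to 4 without limma's trend and to 8 with the 6 genes of fractional reads left out, and ranged from 13 to 22 on leaving out 1 library (22 without DekTg replicate 2). With the replicate number as a block 15 genes were called, 0 of them R-loop genes, and no R-loop call changed. The sign of 6 differences turned in some setting. Rnaseh1 was -0.018 with libraries 1 and 4 averaged and -0.052 without both replicates 4, and -0.021 to 0.14 on leaving out 1 library. Aqr was 0.070 and Top1 0.10 with quantile normalization, and Dhx9 -0.0092 with library weights and -0.043 to 0.10 on leaving out 1 library. Rnaseh2b was -0.25 to 0.025 on leaving out 1 library, and Ddx19a 0.065 when summed with Ddx19b. With libraries 1 and 4 averaged, Rnaseh2a was -0.37, Dhx9 0.07 and Top1 -0.03. The causes were not tested. Rnaseh2a kept its sign in all 24 settings (-0.43 to -0.13), reaching an unadjusted p of 0.0347 (adjusted p = 0.887) without both replicates 4, and Rnaseh2c (-0.54 to -0.12) and Xrn2 (-0.24 to -0.04) kept theirs. Leaving out both replicates 4 and DESeq2 without its filtering were added after seeing the data. Depth limits Rnaseh2c and Ddx19a most.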
